A study of Homo sapiens with 6 samples.

Results

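The genes described are those for SR proteins, hnRNP proteins and the protein parts of the core spliceosome in 3 human bladder cancer cell lines. Members were the rows of the gene table whose symbol begins with SRSF, HNRNP, SNRP, SF3A, SF3B, PRPF, U2AF, TRA2 or CWC, or with LSM or RBM followed by a number. Of 117 rows found this way, 7 were pseudogenes by annotated type or by symbol and were left out. The remaining 110 names included 2 readthrough names, and the 108 genes lay at 106 of the 10066 loci that the authors assembled. All 106 loci were above 0 in each of the 6 libraries, as were 9112 of all loci, and 105 of the 106 had a mean of at least 1 FPKM (fragments scaled to the length of the transcript and the mapped fragments of the library).

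RT4 and RT112 cells carry an FGFR3-TACC3 fusion and SW780 cells an FGFR3-BAIBP2L1 fusion. Each line was cultured with DMSO or with quisinostat, an inhibitor of histone deacetylases, for 2 days. The dose was 50 nM for RT4, 10 nM for RT112 and 25 nM for SW780. Dose and cell line therefore cannot be told apart. Polyadenylated RNA gave 1 library per line and treatment, so a difference within a line has no replicate check. One label of the SW780 quisinostat library misspells the line, which was taken from its title. The transcriptomes were made to look into how quisinostat acts in such cells, and the study called a locus lowered where the log2 ratio was below -0.3 in all 3 lines. The same limit is used below, and its mirror is a ratio above 0.3. Values given in threes are in the order RT4, RT112 and SW780 unless the lines are named. Each line is a single established cancer cell line rather than a tissue, and in bulk RNA fewer cells of a kind and less RNA per cell cannot be told apart.

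An intron is removed by the spliceosome, which is built anew on each transcript. The U1 particle pairs with the 5′ splice site, the U2 auxiliary factor and the U2 particle take the 3′ splice site and the branch point, and the preassembled U4/U6.U5 tri-snRNP then joins. Further proteins reshape the complex for catalysis. Most of these particles hold a ring of Sm proteins, and U6 holds a ring of LSM proteins instead. SR proteins bind exons and mostly favour their inclusion, whereas hnRNP proteins coat the nascent transcript and often oppose inclusion. The members were sorted by these roles into SR proteins with TRA2A and TRA2B (13 loci), hnRNP proteins (20), the Sm ring (8), U1 (4), U2 with SF3A, SF3B and U2AF (14), tri-snRNP (12), proteins of the B complex and later stages (9), numbered RBM proteins (21) and LSM proteins outside the U6 ring (5).

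Transcripts of the splicing machinery were lower with quisinostat in each line as a group, with median log2 ratios of -0.38, -0.28 and -0.27. Over all 9112 loci the medians were 0.08, 0.06 and 0.04. The members held 1.56% of the summed FPKM with DMSO and 1.25% with quisinostat in RT4 cells. The shares were 1.50% and 1.26% in RT112 cells and 1.47% and 1.32% in SW780 cells. In RT4 cells 59 of the 106 members were below -0.3, against 33.5% of all loci, and 13 were above 0.3, against 40.3%. In RT112 cells 51 were below, against 25.2%, and 14 above, against 36%. In SW780 cells 50 were below, against 28.2%, and 14 above, against 32.8%.

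In all 3 lines together 18 of 106 members (17.0%) were below -0.3, against 4.99% of all loci. These were SRSF2, SRSF3, SRSF4, SRSF7, TRA2B, HNRNPD, HNRNPH1, HNRNPR, SNRPA1, SF3B3, U2AF1, U2AF1L5, PRPF3, PRPF8, PRPF4B, RBM25, RBM39 and LSM12. By class they were 5 of 13 SR, 4 of 14 U2, 3 of 20 hnRNP, 2 of 12 tri-snRNP and 2 of 21 RBM loci. The later-stage class had 1 of 9 and the other LSM class 1 of 5. None of the 8 Sm or the 4 U1 loci was among them, which in so few loci is near the share of all loci. Above 0.3 in all 3 lines were 3 members (2.83%, against 11.4% of all loci), namely SNRPN, LSM8 and RBM11. Without RT112 cells, 39 members were below -0.3 in both other lines, against 17.9% of all loci, and 9 were above 0.3, against 23%.

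**Figure D1:**
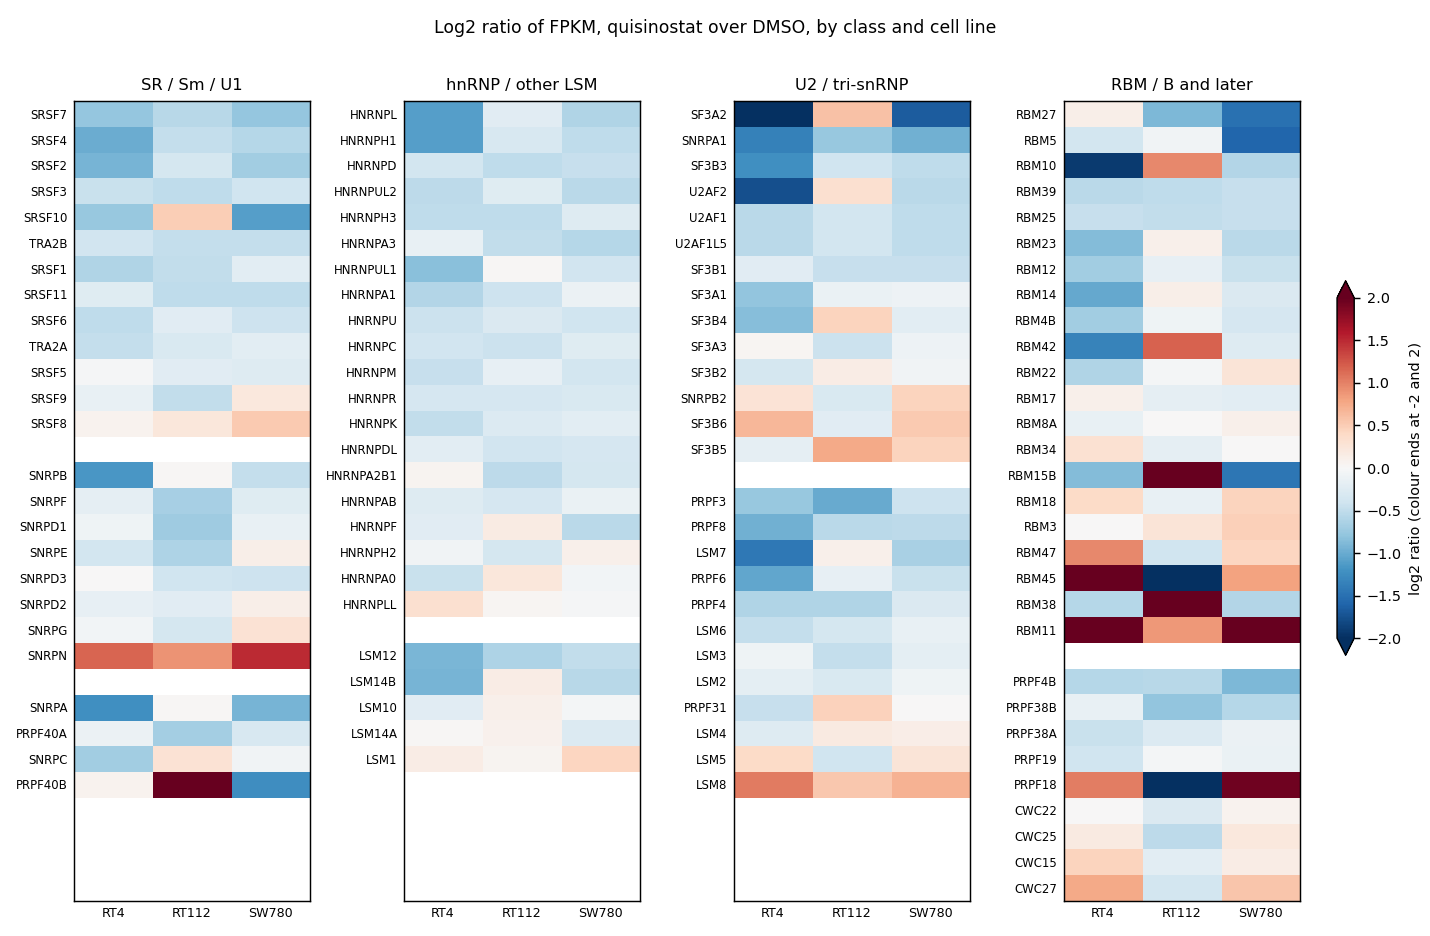
Log2 ratio of FPKM in quisinostat over DMSO for the 106 member loci (rows, grouped by class and ordered by their mean) in RT4, RT112 and SW780 cells (columns), with blue for lower and red for higher and the colours ending at -2 and 2. A locus with several names is shown under 1 of them, and the SR and hnRNP blocks are mostly blue in all 3 columns while SNRPN, LSM8 and RBM11 are red in all 3.

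limma was the test used. It compared quisinostat with DMSO across the 3 lines on log2(FPKM + 1), with the cell line as a block, and its p-values measure the spread between these 3 lines only. None of the 105 members tested passed an adjusted p of 0.05, and of all 9430 loci 0% did. The lowest adjusted p of a member was 0.245, for SNRPA1 by limma with Benjamini-Hochberg adjustment. At an unadjusted p under 0.05, limma had 15 members lower, against 4.16% of all loci, and 2 higher, against 9.68%. The fitted difference was negative for 86 of the 105 members and for 4334 of the 9430 loci. The numbers below are therefore measured differences that did not pass the adjusted test.

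Ranked by class, the SR proteins had the lowest median, with a mean over the 3 lines of -0.46 ± 0.04 (SD of the line medians, n = 3 lines). U2 followed at -0.38 ± 0.14, hnRNP at -0.36 ± 0.04, tri-snRNP at -0.32 ± 0.15 and U1 at -0.29 ± 0.40. Without U2AF1L5, a near-identical copy of U2AF1, U2 was at -0.33 ± 0.19 and came after hnRNP. The numbered RBM proteins were at -0.27 ± 0.19, the Sm ring at -0.17 ± 0.18, the other LSM proteins at -0.14 ± 0.20 and the later-stage proteins at -0.09 ± 0.23. The distance from SR to U2, tri-snRNP, U1 or RBM is smaller than the spread of those classes between lines, so the ranking does not separate them. Without RT112 cells U1 was lowest at -0.52, with SR at -0.45 and U2 at -0.44. The SR median lay below the hnRNP median in each of the 3 lines. Genes of a class are not replicates, so these distances were not tested.

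The class with the lowest median changed from line to line. It was U2 in RT4 cells (-0.54), SR in RT112 cells (-0.48) and U1 in SW780 cells (-0.63). SR was first or next to first in all 3 lines, with medians of -0.48, -0.48 and -0.41 in RT4, RT112 and SW780 cells. The hnRNP medians, -0.40, -0.33 and -0.34, were nearly as even. U1 ranged from -0.63 to 0.16 and rests on 4 loci. The later-stage class was at 0.02 in RT4 and 0.07 in SW780 cells but at -0.36 in RT112 cells.

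**Figure D2:**
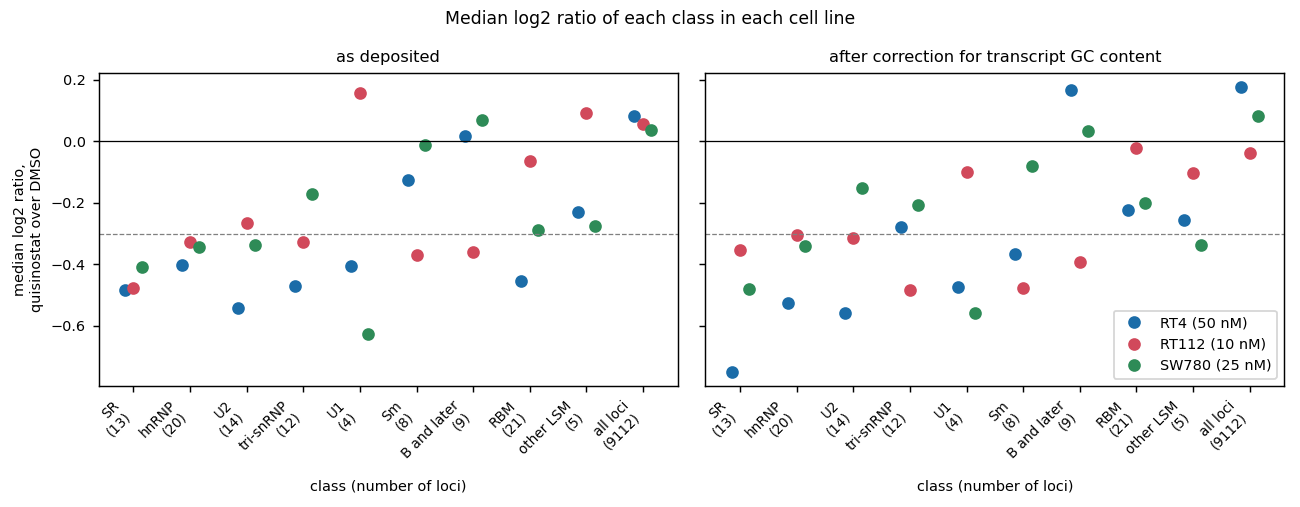
Median log2 ratio of quisinostat over DMSO for each class (x axis, number of loci in brackets) in RT4, RT112 and SW780 cells (coloured points), with the values as deposited on the left and after a correction for transcript GC content on the right, where all loci are the 8407 with a GC value. The dashed line marks -0.3, and SR has all 3 points below it in both panels, between -0.48 and -0.41 as deposited and between -0.75 and -0.35 after the correction.

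The ratio went with the base composition of the transcript, in a direction that depended on the line. Spearman's rho of the log2 ratio with GC content across the 106 members was -0.50, 0.49 and -0.25. Across 8407 loci it was -0.49, 0.44 and -0.22. These are descriptions across genes of the same libraries, and genes are not independent replicates. Members at or above the members' median GC content of 45.7% had medians of -0.57, -0.07 and -0.37. Members below it had -0.21, -0.36 and -0.22. The part of GC content in the class values was not tested beyond subtracting its trend over all loci in each line.

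After that subtraction 27 of the 106 members were below -0.3 in all 3 lines, against 6.36% of loci with a GC value, and 4 were above 0.3, against 12.5%. Of the 18 members named above, 16 remained below and SRSF2 and HNRNPR did not, with RT112 ratios of -0.28 and -0.19. Among those that came in were SNRPA, SF3A2, SF3B1, HNRNPL and LSM7. SR kept the lowest mean of line medians at -0.53 ± 0.20, followed by hnRNP at -0.39 ± 0.12 and U1 at -0.38 ± 0.24. Next were U2 at -0.34 ± 0.20 and tri-snRNP at -0.32 ± 0.14. Without U2AF1L5, U2 was at -0.30 ± 0.20.

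**Figure D3:**
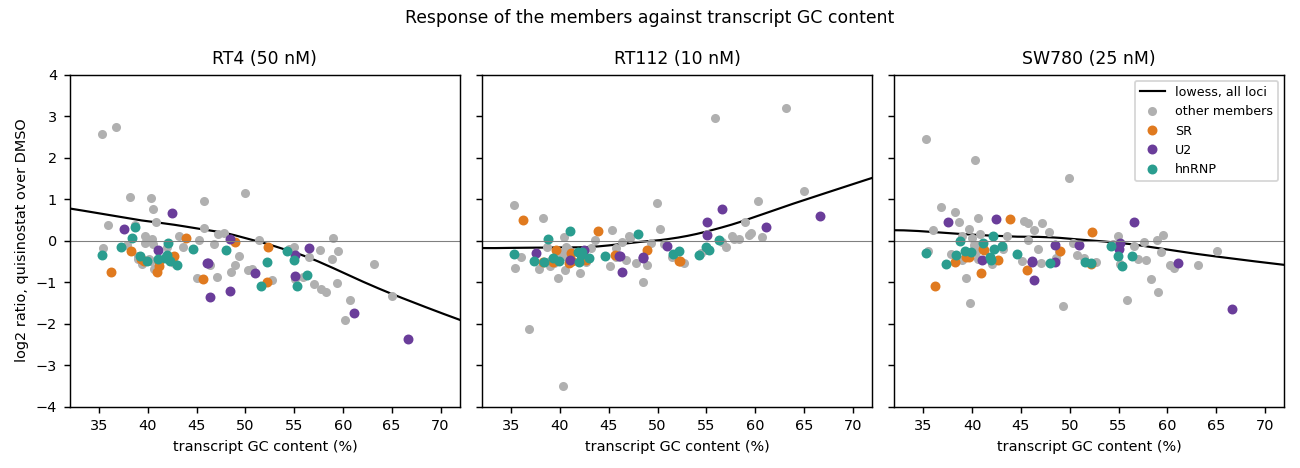
Log2 ratio of quisinostat over DMSO (y axis) against the GC content of the transcript in percent (x axis) for the members in each line, with SR, U2 and hnRNP loci coloured, other members in grey and a lowess curve over all loci in black. The curve goes down with GC content in RT4 and SW780 cells and up in RT112 cells, and SR loci lie mostly below it in each panel. PRPF40B in RT112 cells, at 8.78, is off the axis.

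SR proteins carry RNA recognition motifs and a tail rich in arginine and serine. SRSF7 had the lowest mean ratio of the class. It stood at 45.9, 46.6 and 45.9 FPKM with DMSO in RT4, RT112 and SW780 cells, and at 27.0, 31.8 and 26.9 FPKM with quisinostat. All 3 quisinostat libraries were below all 3 DMSO libraries, with log2 ratios of -0.77, -0.55 and -0.77 (limma -0.68 ± 0.17 SE, adjusted p = 0.281). SRSF3, its closest relative and the smallest SR protein, went from 56.0, 72.6 and 60.3 FPKM with DMSO to 41.2, 51.0 and 45.6 with quisinostat in the same order. The groups did not overlap here either, and the log2 ratios were -0.44, -0.51 and -0.40. All 3 quisinostat libraries were below all 3 DMSO libraries in 24 of the 106 members, against 4.43% of all loci, and above them in 1 (RBM11), against 6.18%.

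SRSF2, which binds exonic enhancers and is a recurrent mutation target in blood cancers, went from 77.2 to 40.5 FPKM in RT4, from 73.9 to 58.0 in RT112 and from 68.8 to 42.4 in SW780 cells. SRSF4, a long SR protein, went from 13.7 to 6.87 FPKM in RT4, from 12.2 to 8.77 in RT112 and from 11.6 to 7.81 in SW780 cells. In both genes the ratio was lowest in RT4 cells, at -0.93 for SRSF2 and -0.997 for SRSF4, and highest in RT112 cells, at -0.35 and -0.48. TRA2B, which resembles SR proteins and binds purine-rich enhancers, went from 18.3 to 14.0, from 28.3 to 20.3 and from 20.4 to 14.7 FPKM in RT4, RT112 and SW780 cells. Its DMSO and quisinostat ranges overlapped between lines, since RT112 cells had more of it under both conditions. Its ratios of -0.38, -0.48 and -0.47 lay close together, and after the GC correction they were -0.59, -0.35 and -0.51. SRSF1, the founding member, had ratios of -0.61, -0.50 and -0.22.

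SRSF9, SRSF10 and SRSF8 departed from the class. SRSF9, the most abundant SR transcript, went from 82.4 to 74.0, from 76.8 to 54.5 and from 48.0 to 55.4 FPKM in RT4, RT112 and SW780 cells, so SW780 cells had more of it with quisinostat. SRSF10, which represses splicing after heat shock when it loses its phosphates, had the widest range of the class, with ratios of -0.75, 0.49 and -1.10. SRSF8, a relative of SRSF2, was higher in each line, with ratios of 0.07, 0.23 and 0.52. The ratio of SRSF2 to SRSF8 therefore went from 7.81 to 3.91, from 9.48 to 6.33 and from 6.24 to 2.68. The other SR members, SRSF5, SRSF6, SRSF11 and TRA2A, were lower in each line, between -0.03 and -0.51.

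**Figure D4:**
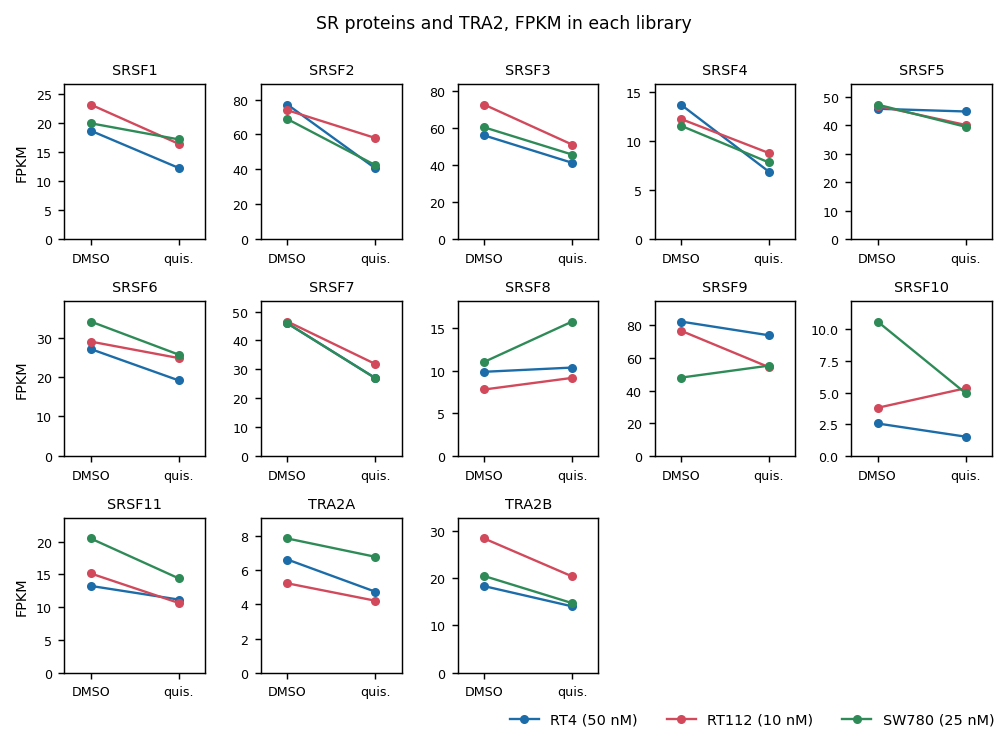
FPKM of the 13 SR and TRA2 genes (1 panel each, y axes from 0) with DMSO and with quisinostat, with a line joining the 2 libraries of each cell line. SRSF7 goes from about 46 FPKM in each line to between 26.9 and 31.8, SRSF2, SRSF3 and SRSF4 also go down in each line, and SRSF8 goes up.

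Many SR genes make a transcript that ends in nonsense-mediated decay and so limit their own protein. In GENCODE 29 all 13 SR loci had at least 1 transcript of that type, against 44.0% of 7625 protein-coding loci with a single name, 13 of 20 hnRNP loci and 2 of 8 Sm loci. SRSF7 had the most among the named SR genes above, 6 of 12 annotated transcripts. The deposited gene-level FPKM do not separate these transcripts from the coding ones.

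Promoter sequence was available from RefSeq (GRCh38.p14) for 93 of the 106 loci, as 300-base windows around 1 start per gene. The 120 bases before the start are shown for 3 members that were below -0.3 in all 3 lines and whose window lies almost wholly outside annotated transcripts. They are SRSF3 at chr6:36594242-36594361 on the plus strand, SRSF7 at chr2:38751495-38751614 on the minus strand and PRPF8 at chr17:1684868-1684987 on the minus strand. Capitals mark CCAAT on either strand. They also mark GGGCGG on either strand. TATAAA is the last word marked, and none of the marked words overlap.
SRSF3: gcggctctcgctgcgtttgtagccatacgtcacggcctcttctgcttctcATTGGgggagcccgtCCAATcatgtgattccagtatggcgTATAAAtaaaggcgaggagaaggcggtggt
SRSF7: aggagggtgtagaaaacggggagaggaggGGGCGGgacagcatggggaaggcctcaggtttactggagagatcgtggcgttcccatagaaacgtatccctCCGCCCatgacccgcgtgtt
PRPF8: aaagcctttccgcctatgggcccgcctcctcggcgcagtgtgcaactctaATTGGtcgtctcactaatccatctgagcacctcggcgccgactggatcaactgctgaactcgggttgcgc
SRSF3 has CCAAT 70 bases before its start on the minus strand and 55 bases before it on the plus strand, and TATAAA 30 bases before it. In the 300-base windows, on both strands, 46 of the 93 members held CCAAT (49.5%), as did 35.7% of all 27305 promoters, 1 per gene symbol, and 37.6% of those of genes in the table. GGGCGG was in 61.3% of member promoters and 71.5% of those of genes in the table, and TATAAA in 8.60% and 5.48%. Of the 12 members below -0.3 in all 3 lines that had a promoter, 5 held CCAAT, 7 GGGCGG and 2 TATAAA. A match of letters is a description and not a binding site.

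The hnRNP class was even between lines as deposited, with a class median between -0.40 and -0.33. After the GC correction the medians were -0.53, -0.31 and -0.34. HNRNPD, which binds AU-rich elements, went from 62.0 to 48.3 FPKM in RT4, from 58.7 to 41.2 in RT112 and from 23.5 to 17.0 in SW780 cells (log2 ratios -0.36, -0.51 and -0.47). HNRNPH1, which binds runs of G, went from 33.1 to 15.5, from 25.8 to 20.7 and from 33.9 to 23.9 FPKM, and RT4 cells had the lowest ratio at -1.10. Its X-linked relative HNRNPH2 had ratios of -0.06, -0.35 and 0.10, but its locus also carries RPL36A. HNRNPR was just past the limit in each line, at -0.34, -0.33 and -0.30.

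HNRNPA1, a repressor of exon inclusion and the most abundant member of all, stood at 253, 209 and 140 FPKM with DMSO and at 168, 156 and 128 with quisinostat in RT4, RT112 and SW780 cells. Its ratios were -0.59, -0.42 and -0.12, and reads of this gene may be shared with its processed copies. HNRNPA2B1, the partner of HNRNPA1 in the core particle, had ratios of 0.05, -0.53 and -0.36. HNRNPK, which binds C-rich sequence, had -0.49, -0.27 and -0.21, and the chromatin-bound HNRNPU had -0.43, -0.28 and -0.40. HNRNPL had the widest range of the class, -1.09, -0.22 and -0.61, at a locus shared with ECH1. Of the 20 hnRNP loci 14 were lower in each line, against 1517 of all 9112 loci. Only RT4 cells had an hnRNP locus above 0.3, HNRNPLL at 0.32. Of all loci, 40.3%, 36% and 32.8% were above 0.3 in RT4, RT112 and SW780 cells.

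The summed FPKM gives the weight of each class in the pool. The SR sum went from 417 to 308, from 442 to 335 and from 406 to 317. The hnRNP sum went from 1598 to 1206, from 1534 to 1244 and from 1338 to 1084. The ratio of the hnRNP sum to the SR sum was 3.83 with DMSO and 3.92 with quisinostat in RT4, 3.47 and 3.71 in RT112, and 3.29 and 3.42 in SW780 cells. It was thus slightly higher with quisinostat in all 3 lines, and without replicate libraries the error of such a ratio is unknown.

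In the U1 class, direction depended on the line. SNRPA, which binds a stem-loop of U1 RNA, went from 43.3 to 18.5 FPKM in RT4 and from 27.8 to 14.5 in SW780 cells, and from 30.4 to 31.0 in RT112 cells. Its transcript is 58.3% GC, and after the GC correction its log2 ratios were -0.47, -0.70 and -0.44 in RT4, SW780 and RT112 cells. SNRPC, which steadies pairing with the 5′ splice site, had ratios of -0.70, 0.28 and -0.07. PRPF40B was listed at 0.00507 FPKM with DMSO and 2.22 with quisinostat in RT112 cells, so its log2 ratio of 8.78 rests on a value near 0. It was 1.44 and 1.51 FPKM in RT4 cells and 4.13 and 1.75 in SW780 cells.

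In the U2 class, SNRPA1 was the member with the lowest log2 ratio in its least affected line, -0.76 in RT112 cells. Its protein holds SNRPB2 on U2 RNA, and the gene lies at chr15:101281510-101295282 (GRCh38, minus strand). SNRPA1 went from 61.8 to 24.1 FPKM in RT4, from 24.8 to 14.6 in RT112 and from 38.0 to 19.5 in SW780 cells, and all 3 quisinostat libraries were below the lowest DMSO library. The log2 ratios were -1.36, -0.76 and -0.96 (limma -0.99 ± 0.20 SE, adjusted p = 0.245). Its partner SNRPB2 had ratios of 0.27, -0.30 and 0.44.

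The SF3B complex grips the branch point. SF3B3 went from 38.5 to 16.5, from 34.9 to 26.4 and from 40.9 to 28.7 FPKM in RT4, RT112 and SW780 cells, without overlap between the treatments. SF3B1, the subunit that contacts the branch-point adenosine, had ratios of -0.23, -0.46 and -0.46, and RT4 cells kept it just outside the limit. SF3B6, which sits at the branch point and was the most abundant U2 transcript, had ratios of 0.66, -0.23 and 0.53, and SF3B5 had -0.18, 0.76 and 0.44. In the SF3A complex, SF3A3 had ratios of 0.04, -0.42 and -0.10. SF3A2, of 66.6% GC, the most GC-rich member, went from 3.97 to 0.762 FPKM in RT4, from 5.22 to 7.83 in RT112 and from 1.47 to 0.465 in SW780 cells.

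The U2 auxiliary factor reads the 3′ splice site. U2AF1, its small subunit, had ratios of -0.55, -0.37 and -0.51, and the copy U2AF1L5 had -0.54, -0.37 and -0.50. The coding transcripts of the pair match at 1018 of 1019 bases, so reads cannot be divided between them, and counting them as 1 gene leaves 17 members below -0.3 in all 3 lines. U2AF2, the large subunit that binds the polypyrimidine tract, went from 111 to 33.0 FPKM in RT4, from 49.3 to 61.6 in RT112 and from 54.2 to 37.3 in SW780 cells. Its transcript is 61.1% GC, and the ratios of -1.75, 0.32 and -0.54 became -0.70, -0.37 and -0.21 after the GC correction.

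Within the tri-snRNP, the PRPF proteins were lower than the LSM ring in each line, a difference that was not tested. The 5 PRPF loci had medians of -0.75, -0.53 and -0.42 in RT4, RT112 and SW780 cells, and the 7 LSM loci had -0.20, -0.31 and -0.08. After the GC correction the medians were -0.56, -0.61 and -0.28 for PRPF and -0.07, -0.39 and 0.04 for LSM. PRPF8, the scaffold of the catalytic centre, went from 90.5 to 46.7, from 53.8 to 37.2 and from 75.8 to 53.0 FPKM, and was below all its DMSO values in each quisinostat library (limma -0.66 ± 0.18 SE, adjusted p = 0.306). PRPF3, a U4/U6 protein, went from 26.2 to 15.6, from 48.1 to 23.9 and from 23.3 to 17.4 FPKM. PRPF31, another U4/U6 protein, had ratios of -0.46, 0.46 and 0.01, with 58.9% GC.

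LSM8, which defines the nuclear LSM2-8 ring on U6 and is replaced by LSM1 in the cytoplasmic ring, was higher in each line. It went from 9.34 to 19.2 FPKM in RT4, from 6.40 to 9.27 in RT112 and from 5.73 to 9.24 in SW780 cells, where the RT4 DMSO value is above 2 of the quisinostat values. The log2 ratios were 1.04, 0.54 and 0.69 (limma 0.68 ± 0.21 SE, adjusted p = 0.317). LSM2, which lies beside LSM8 in the ring, had -0.20, -0.31 and -0.08, and LSM7 had -1.43, 0.09 and -0.65 with a GC content of 60.7%.

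The Sm ring was led by a pair of related genes that, before the GC correction, went opposite ways in RT4 and SW780 cells. SNRPB encodes SmB/B′, and SNRPN, an imprinted gene at chr15:24823637-24978723 (GRCh38, plus strand), encodes the related SmN, which can take its place. SNRPB went from 48.3 to 21.6, from 39.0 to 39.8 and from 35.5 to 25.7 FPKM in RT4, RT112 and SW780 cells. SNRPN went from 9.29 to 20.7, from 2.85 to 5.32 and from 2.55 to 7.19 FPKM. Its log2 ratios were 1.16, 0.90 and 1.50 (limma 1.00 ± 0.22 SE, adjusted p = 0.257). The ratio of SNRPB to SNRPN therefore went from 5.20 to 1.04, from 13.7 to 7.47 and from 14.0 to 3.57. The SNRPB transcript is 57.8% GC. After the GC correction the log2 ratios were -0.46, -0.40 and -0.26 for SNRPB and 1.26, 0.87 and 1.53 for SNRPN. SNRPN has several starts, and the FPKM of the locus do not say which of them was used.

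SNRPD2, the most abundant of the Sm genes, had ratios of -0.17, -0.23 and 0.12, and the other 5 Sm genes ranged from -0.72 (SNRPD1 in RT112 cells) to 0.29 (SNRPG in SW780 cells). Of the 8 Sm loci 2, 5 and 2 were below -0.3, against 33.5%, 25.2% and 28.2% of all loci.

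**Figure D5:**
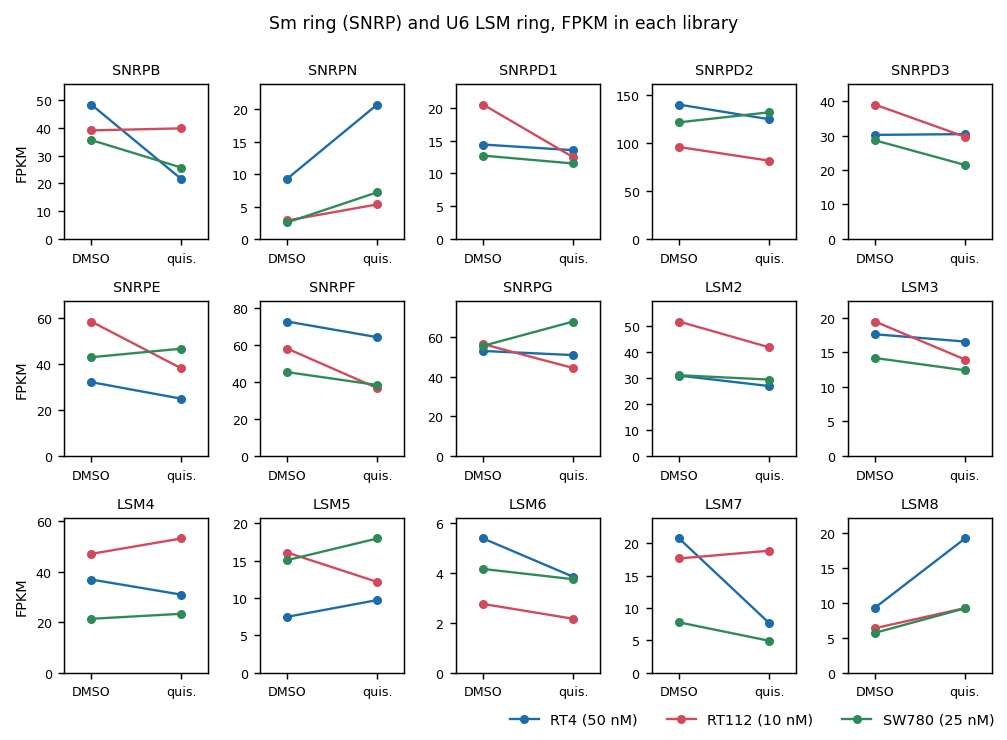
FPKM of the 8 Sm genes and the 7 genes of the U6 LSM ring (1 panel each, y axes from 0) with DMSO and with quisinostat, with a line joining the 2 libraries of each cell line. SNRPN and LSM8 go up in all 3 lines, while SNRPB goes from 48.3 to 21.6 FPKM in RT4 cells and stays near 39 in RT112 cells.

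Among the proteins of later stages, PRPF4B, a kinase that acts on tri-snRNP proteins, went from 12.2 to 8.23, from 15.4 to 10.5 and from 16.0 to 8.61 FPKM in RT4, RT112 and SW780 cells. PRPF19, a ubiquitin ligase of the activated spliceosome, had ratios of -0.40, -0.04 and -0.14. PRPF18, which acts in the second step of splicing, had the widest range of the class, with 2.49 and 5.06 FPKM in RT4, 7.67 and 0.676 in RT112, and 1.85 and 7.14 in SW780 cells for DMSO and quisinostat. The 4 CWC loci included none past the limit in all 3 lines in either direction. In 4 loci that is near the 4.99% of all loci below and 11.4% above. The CWC medians were 0.32, -0.32 and 0.18 in RT4, RT112 and SW780 cells. Those of the 5 PRPF loci of the class were -0.40, -0.55 and -0.14, and the difference was not tested.

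The numbered RBM proteins are named for an RNA-binding motif and not all of them act in splicing. RBM39, a U2AF2-like factor, had ratios of -0.54, -0.51 and -0.46, and RBM25, which binds with the U1 factor LUC7L3, had -0.45, -0.49 and -0.47. The lines spanned 0.07 for RBM39 and 0.04 for RBM25 before the GC correction. After it the ratios lay further apart, at -0.75, -0.38 and -0.50 for RBM39 and -0.78, -0.36 and -0.55 for RBM25. RBM3, a cold-inducible protein and the most abundant RBM transcript, had 0.00, 0.27 and 0.47. RBM11 was higher in each line at low levels, from 0.176 to 1.05 FPKM in RT4, from 0.416 to 0.755 in RT112 and from 0.455 to 2.50 in SW780 cells. RBM45 had the widest range of the class, with ratios of 2.73, -2.13 and 0.80. The locus of RBM5 and RBM6 was listed at 0.0470 FPKM with DMSO and 0.0157 with quisinostat in SW780 cells and at 16.7 and 13.0 in RT4 cells. Of LSM proteins outside U6, LSM12 went from 31.9 to 17.0, from 21.1 to 13.8 and from 21.1 to 15.0 FPKM in RT4, RT112 and SW780 cells. LSM14A, a protein of cytoplasmic granules, had 0.03, 0.09 and -0.28, and LSM14B had -0.92, 0.15 and -0.56.

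Splicing genes with symbols outside the naming rule were described through 9 lists holding 103 loci. In all 3 lines 17 of the 103 were below -0.3 and 0 above 0.3, against the same 4.99% and 11.4% of all loci. Of the U1 partners, LUC7L, LUC7L2 and LUC7L3 were below, with LUC7L3 at -0.47, -0.78 and -1.13 in RT4, RT112 and SW780 cells. Of the U2 list PHF5A, an SF3B subunit, and the helicase DHX15 were below. Of the tri-snRNP list SNRNP200, the U4/U6-unwinding helicase, was below at -0.83, -0.54 and -0.39, with SNRNP40 and DDX23. Of the exon junction and SR-related list SRRM1, a nuclear matrix protein with SR repeats, was below at -0.74, -0.44 and -0.81, with PNN, CASC3 and DDX39B. SNRNP25 and PDCD7 of the minor spliceosome, COIL of snRNP assembly, and the regulators MBNL1 and RBMX were the rest. None of the 21 loci of the catalytic stages and none of the 5 SR kinase loci were below in all 3 lines. In lists this short a count of 0 is near the 4.99% of all loci and does not set them apart. The medians were 0.06, -0.09 and 0.09 for the catalytic stages and 0.01, -0.40 and -0.29 for the SR kinases. Over the 103 loci together they were -0.24, -0.24 and -0.17, and these differences were not tested.

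The cell type was checked by its markers. KRT8, KRT18 and KRT19, keratins of urothelium, were between 98.7 and 637 FPKM in all 6 libraries. KRT7, EPCAM and PPARG were between 44.7 and 248 FPKM in all 6 libraries, and GATA3 and TP63 between 11.6 and 50.9. UPK3A, KRT5 and UPK2 were low in some libraries. With DMSO and quisinostat, UPK3A, a uroplakin of the surface layer, was at 0 and 0 FPKM in RT112 cells and 0.187 and 0.0439 in SW780 cells. The KRT5 locus, shared with KRT6A, was at 0.0433 and 0.00976 in RT4 cells and 0.447 and 0.251 in SW780 cells. UPK2 went from 51.6 to 6.80 in RT4, from 5.55 to 8.30 in RT112 and from 36.2 to 6.44 in SW780 cells. These markers also differed between treatments, with median log2 ratios of -1.21, 0.70 and -0.75 over the 10 of 11 epithelial markers that had one, and KRT19 was at -1.81, 0.82 and -0.97. Their part in the ratios of the members was not tested. Of 9 markers of other cell types only COL1A1 had a row. Its range was 0.0342 to 0.173 FPKM with DMSO and 0.474 to 1.45 with quisinostat, and its part in the ratios of the members was not tested. The summed FPKM of a library was between 237363 and 263856. FPKM are already scaled to the mapped fragments of the library, so these sums are no check on the amount of RNA per cell.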

How the data were processed

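The authors sequenced stranded libraries from polyadenylated RNA (1 library per line and treatment, 6 in all). Per the labels, CASAVA 1.8.2, Trimmomatic 0.36, HISAT2 2.2.1, SAMtools 1.15.1, StringTie 2.2.1 and GRCh38 were used. The annotation release is not given in the sources used here. The values the authors deposited are FPKM per assembled locus, scaled to transcript length and mapped fragments and not corrected for GC content as far as stated. Read counts are not part of this unit, so depth is unknown and no counting interval was made.

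In each line, log2 ratios (quisinostat over DMSO) were taken without a pseudocount, at loci above 0 in all 6 libraries. limma 3.58.1 (R 4.3.3) was run on log2(FPKM + 1) for loci averaging 1 FPKM or more, blocked by cell line, with a trend and Benjamini-Hochberg adjustment. Fold changes on that scale understate changes of low genes. The block is the cell line, since both libraries of a pair come from it, and the pairs' deviations correlated at 0.60, 0.50 and 0.73. GC content came from GENCODE 29 transcripts. A lowess curve (span 0.3) of ratio on GC was subtracted and the curve's median added back. The all-locus medians were 0.08, 0.06 and 0.04 before, over 9112 loci. They were 0.17, -0.04 and 0.08 after, over the 8407 loci with a GC value, so the sets of loci differ.

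Named genes were members past the limit in all 3 lines, the most abundant and the most line-dependent member of each class, 24 fixed members, paralog pairs, and list genes past the limit in all 3 lines. SRSF5, SRSF11, SF3B5 and HNRNPA3 were named after their values were seen. SNRPD1 and SNRPG were named as the ends of a range. The members and lists were chosen with earlier results of these data known. Of the class lists, SRSF12, PRPF39, U2AF1L4 and LSM11 were not analysed here. Alternatives were pseudocounts, filters, scalings, the GC correction, thresholds, single-name loci and leaving out a line. Python 3.11.15 with pandas, SciPy and statsmodels was used.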

Additional observations from a re-analysis of the deposited data

Results flagged for a closer look

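In 16 of the 106 members, and in 2670 of all 9112 loci, 1 line was below -0.3 and another above 0.3. The 9 members given here are those among the named genes and paralog pairs, and the difference between the lines was not tested, since each line had 1 library per treatment and its own dose. From the highest to the lowest line, the log2 ratio spanned 10.01 for PRPF40B, whose RT112 DMSO value is near 0, 5.45 for PRPF18, 4.86 for RBM45, 2.97 for SF3A2 and 2.88 for RBM10. It spanned 2.07 for U2AF2, 1.59 for SRSF10, 0.91 for PRPF31 and 0.74 for SNRPB2. RT112 cells were the highest line for PRPF40B, SF3A2, RBM10, U2AF2, SRSF10 and PRPF31, and the lowest for PRPF18, RBM45 and SNRPB2. These are ratios before the GC correction. After it, SF3A2 (-0.78, -0.55 and -1.15), U2AF2 (-0.70, -0.37 and -0.21), PRPF31 (0.37, -0.06 and 0.26) and SNRPB2 (-0.11, -0.16 and 0.34) no longer passed both limits. The other members given here still did.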

How the results depend on the processing

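Under other pseudocounts, filters, scalings, the GC correction and single-name loci, the 18 members below -0.3 in all 3 lines numbered between 17 and 27. The share of all loci below ranged from 3.67% to 6.37% under these settings. Without U2AF1L5, an alternative chosen after the data were seen, 17 members were below, against 4.98%. A limit of 0.5 left 4 of the 18 (PRPF4B, SRSF7, SNRPA1 and PRPF8), against 1.89% of all loci, and a limit of 1 left 0, against 0.285%. The 3 members above numbered 0 at a limit of 1, against 3%. Leaving out a cell line gave 26 to 39 below, against 8.18% to 17.9% of all loci, and 3 to 9 above, against 15.9% to 23%, the highest without RT112 cells. Of the class values, SR moved to -0.51 when ratios were centred on the median of all loci and to -0.53 with the GC correction, and hnRNP to -0.42 when centred. By the line left out, U1 ranged from -0.52 to -0.12, the Sm ring from -0.25 to -0.07, RBM from -0.37 to -0.18 and the later-stage class from -0.17 to 0.04, which is above 0 without RT112 cells. With the GC correction the Sm ring was at -0.31 and RBM at -0.15. limma called 0 members under each alternative, including without the replicate block and without each line. Members lower at an unadjusted p under 0.05 numbered 15, 8 without the block, 9 without RT4, 20 without RT112 and 2 without SW780 cells, against 392, 106, 240, 889 and 74 of all 9430 loci. The cause was not tested. Depth is unknown and could not be weighed.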

Other observations

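The 7 pseudogene rows that were left out included 3 with log2 ratios below -0.3 in all 3 lines, HNRNPA1P48 (-0.92, -1.88 and -1.15 in RT4, RT112 and SW780 cells), HNRNPA1P10 (-0.79, -0.63 and -0.32) and HNRNPA3P3 (-0.56, -0.70 and -0.76). The parent genes HNRNPA1 and HNRNPA3 were not below in all 3 lines. Reads of a processed pseudogene and its parent are hard to tell apart.

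Promoters differed in their letters between classes. The 7-base word CCGGAAG was in 9 of 12 U2 promoters, 4 of 7 Sm promoters and 2 of 11 SR promoters, against 20.5% of the promoters of genes in the table. CACGTG was in 7 of 19 hnRNP promoters and in 0 of 11 SR promoters, against 10.6%. CCAAT was in 13 of 19 hnRNP and 2 of 11 SR promoters, against 37.6%. These counts are a description, were noticed after the motifs were counted in all classes, and were not tested.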
